A study of Mus musculus with 96 samples.

Results

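The unfolded protein response and the integrated stress response were followed through 37 named genes among the 55536 gene identifiers of the expression tables. The 37 genes comprised 14 folding factors of the endoplasmic reticulum (ER), 5 genes of ER-associated degradation, 6 stress sensors and transcription factors, and 12 genes described as targets of ATF4. They were chosen by symbol and role, and all 37 symbols matched a row in each of the 4 expression tables. The material was intestinal organoids of C57BL/6 mice, which are epithelial cultures grown from intestine, in 4 genotypes. Control organoids were APC+/+;BMAL1+/+ and Bmal1-null organoids were APC+/+;BMAL1-/-, both grown in ENR medium. Apc-min organoids were APCmin/-;BMAL1+/+ and Apc-min Bmal1-null organoids were APCmin/-;BMAL1-/-, both labelled as intestinal adenoma organoids and grown in EN medium. APC restrains Wnt signalling, and BMAL1, encoded by Arntl, is a core activator of the circadian clock. Cultures of all 4 genotypes received 0.1 µM dexamethasone for 1 h to align their clocks, were returned to fresh medium, and were collected every 2 h from 24 to 46 h. The tables held 88 libraries, 22 of each genotype, with 2 libraries at most time points and 1 library in 8 of the 48 groups. Each genotype had 2 organoid lines according to the labels. Which library came from which line is not stated there, and p-values therefore measure spread among libraries, not among lines or animals.

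Proteins that enter the ER are folded by chaperones and oxidoreductases, and those that fail are retrotranslocated and degraded. When unfolded proteins build up, the sensors IRE1, PERK and ATF6 signal to the nucleus, and XBP1 and ATF6 raise the transcription of chaperones and degradation genes. PERK also phosphorylates the initiation factor eIF2, as do other kinases that respond to amino acid shortage, haem deficiency or viral RNA, and ATF4 is then translated and induces genes of amino acid supply, redox balance and cell death. Intestinal secretory cells, goblet and Paneth cells above all, carry a large ER and depend on this system, and IRE1β is a form found in mucosal epithelium.

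Both arms have known promoter elements, and a few are shown because they are the letters through which the arms are known to act. RefSeq promoter windows (250 bases before to 50 bases after the start, GRCm38.p6) were present for 33 of the 37 genes, all but Hyou1, Ern2, Atf6 and Manf. Both strands were searched for the ER stress element (CCAAT and CCACG with 9 bases of any kind between them). It lay in windows of 9 of the 33 genes, 7 folding genes and 2 degradation genes, against 0.119% of all 32851 windows. Members were counted per gene, while the shares of all windows here and below were counted per window. The shorter element (ATTGG and CCACG with 1 base between them) lay in the windows of Dnajb11 and Herpud1, against 0.0365% of all windows. The C/EBP-ATF response element TGATGNAA lay in the windows of Asns, Atf3, Chac1, Herpud1, Slc7a11 and Trib3, against 3.97% of all windows, and TGACGTGG lay in no member's window and in 0.676% of all. In the windows below, capitals mark these elements or their reverse complements, and the Herpud1 window carried the shorter ER stress element and the C/EBP-ATF element. A match is a description of letters and not evidence of binding.
Hspa5, chr2:34772010-34772058, plus strand: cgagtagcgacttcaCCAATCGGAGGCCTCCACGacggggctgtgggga
Syvn1, chr19:6046517-6046565, plus strand: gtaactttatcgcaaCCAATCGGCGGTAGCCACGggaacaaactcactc
Herpud1, chr8:94386302-94386402, plus strand: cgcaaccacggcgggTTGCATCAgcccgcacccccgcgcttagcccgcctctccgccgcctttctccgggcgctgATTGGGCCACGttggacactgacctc
Chac1, chr2:119351034-119351071, plus strand: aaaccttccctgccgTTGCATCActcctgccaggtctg
Asns, chr6:7693210-7693247, minus strand: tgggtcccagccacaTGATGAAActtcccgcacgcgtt
Slc7a11, chr3:50443638-50443694, minus strand: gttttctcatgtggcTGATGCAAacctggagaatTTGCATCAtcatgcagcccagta

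Levels are in TPM, an RNA-seq unit scaled per transcript length and to the same total in every library, and differences are between means of log2(TPM + 1), given ± standard error, which understates the change of genes at low levels. Uniquely mapped reads ranged from 28.77 to 48.08 M per library. A pair of libraries at 28 h stood apart. Arntl was 4.09 TPM in the first library labelled Apc-min at 28 h, below all other Apc-min libraries (7.2 to 17.29), and 14.7 TPM in the first library labelled Apc-min Bmal1-null at 28 h, above all others of that label (2 to 6.22). Nr1d1, a direct clock target, was 12.02 TPM in the latter library against 1.81 to 5.86 in the others of its label. In the former library it was 6.04 TPM, inside the range of the others of its label (5.4 to 19.28). That value was below the other Apc-min libraries of its lower-numbered set, described below (8.86 to 19.28). Both doubted libraries were kept under their labels, and the ranges given below include them unless stated. Test results also include them, and only where stated are results given without both as well. The one labelled Apc-min held the lowest value of its genotype in 8 of the 37 genes. The one labelled Apc-min Bmal1-null held the highest value of its genotype in 17. Libraries not in doubt held many extremes too. The first Apc-min library at 46 h was lowest in 12 genes and highest in 7. The first control library at 38 h was lowest in 16. One further library, the second of Apc-min Bmal1-null at 32 h, held the lowest value of its genotype in 29 of the 37 genes and the highest share of reads too short to map among the Apc-min genotypes (3.86%). Each group's libraries were also split by the order of their library numbers into a lower-numbered and a higher-numbered set, because the sets differed within the Apc-min genotypes.

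Between Apc-min and Apc wild-type organoids the folding genes had a median difference near 0, below the median of all genes. The degradation genes, the sensors and factors and the ATF4 targets had medians further below. The ATF4 targets were called in both directions. With Bmal1 intact, 27 of the 37 genes passed an adjusted p of 0.05, beside 81.6% of the 13663 genes tested. Of these, 9 were higher in Apc-min than in control organoids and 18 were lower, beside 50.5% and 31.1% of genes. Without Bmal1, 31 passed, beside 84.5% of 13404 genes, 11 of them higher and 20 lower, beside 45.7% and 38.8%. The median difference was 0.0038 for the folding genes, -0.61 for the degradation genes, -0.44 for the sensors and factors and -0.22 for the ATF4 targets with Bmal1 intact, beside a median of 0.17 for all genes. Without Bmal1 the medians were -0.039, -0.74, -0.54 and -0.15, beside 0.074 for all genes. Median-of-ratios scaling of the libraries moved the differences of all genes by -0.16 in the comparison with Bmal1 intact, and the split of the members then became 7 higher and 25 lower, beside 41% and 39.8% of all genes under the same scaling (8 and 24 without Bmal1, beside 43.8% and 42.8%). Derl3 and Ern2 passed the filter of a mean of 1 TPM in the comparison with Bmal1 intact only through the control group, and Derl3 did so in both comparisons. The Apc genotype, the medium and the series of library numbers (2 to 48 against 49 to 96) coincided and cannot be told apart, and reads too short to map made up 0.75 to 3.86% in the Apc-min genotypes and 2.90 to 15.82% in the others.

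**Figure D1:**
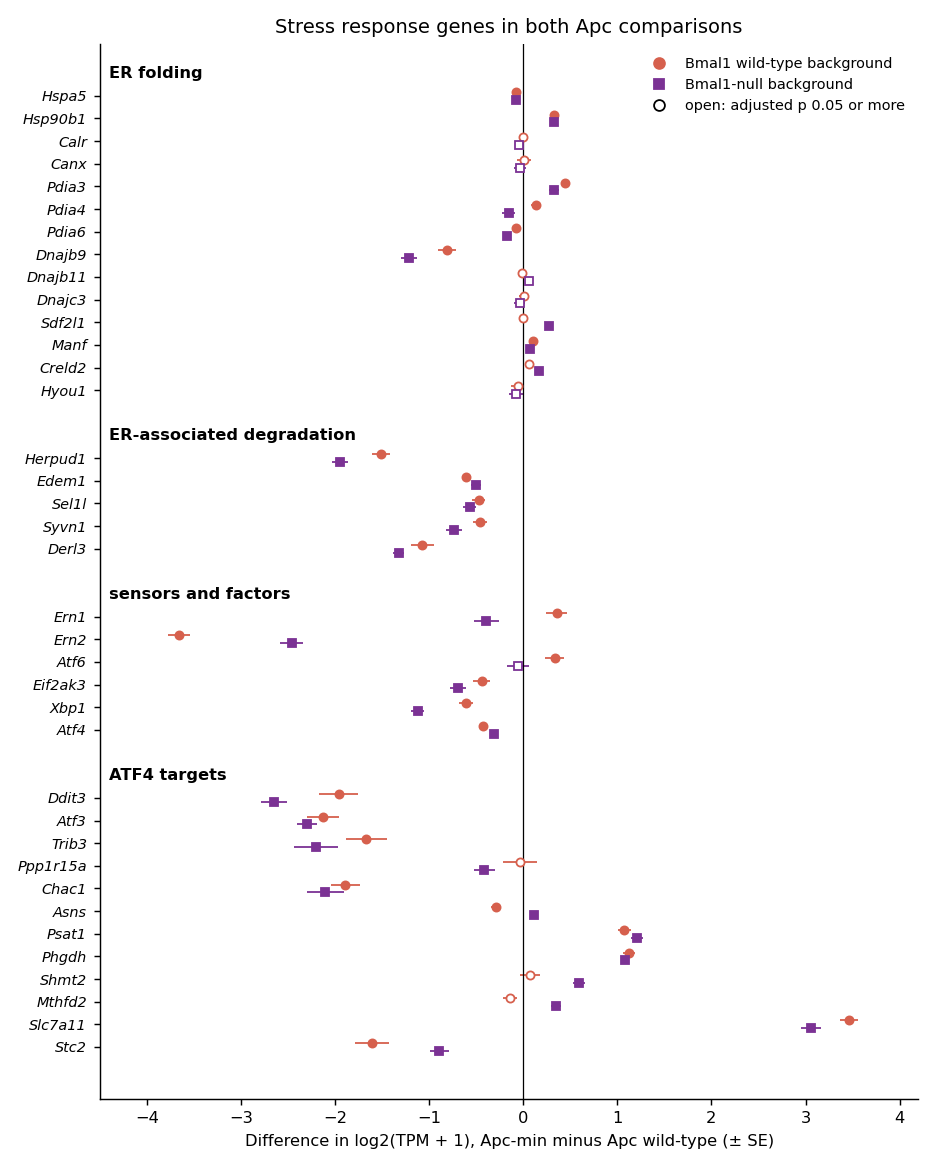
Differences in log2(TPM + 1) between Apc-min and Apc wild-type organoids (x axis, ± standard error) for each of the 37 genes grouped by role (y axis), with Bmal1 intact (circles) and without Bmal1 (squares); open symbols did not pass an adjusted p of 0.05. Among folding genes Dnajb9 lies left of 0 and Pdia3 (0.45 and 0.33) and Hsp90b1 (0.33 and 0.32) lie right of it, all 5 degradation genes lie left of 0, and the ATF4 targets spread from -2.65 (Ddit3) to 3.46 (Slc7a11).

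**Figure D2:**
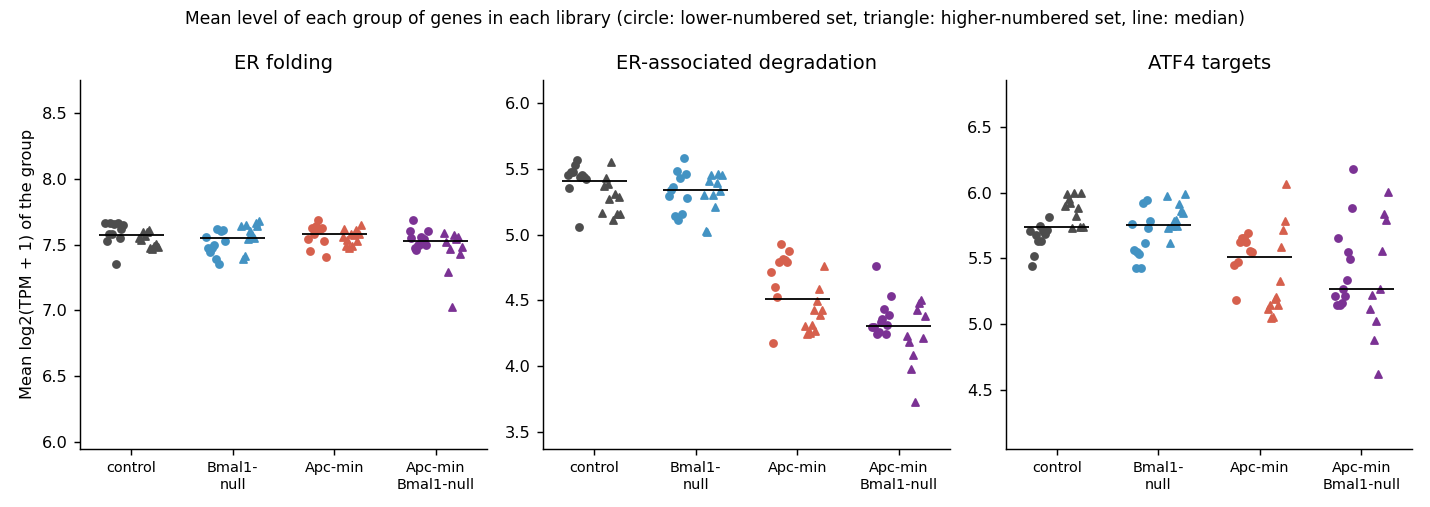
Mean log2(TPM + 1) over the genes of a role in each library (y axis, same span in the 3 panels) by genotype, with circles for the lower-numbered and triangles for the higher-numbered set and a line at the median of 22 libraries. The folding mean has a median of 7.57 in control and 7.58 in Apc-min libraries, while the degradation mean has medians of 5.41 and 4.51 and its ranges do not overlap.

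Of the 14 folding genes, 4 were higher, 3 lower and 7 not called with Bmal1 intact, and 5, 4 and 5 without. Hspa5 encodes BiP, the main ER Hsp70 and the usual gauge of the unfolded protein response. It was at 611.5, 704.4 and 752.3 TPM (lowest, median and highest of 22 libraries) in control, 579.6, 702.8 and 770.7 in Bmal1-null, 593.6, 650.6 and 743.5 in Apc-min and 484.4, 652.0 and 723.7 in Apc-min Bmal1-null organoids. The 4 ranges overlapped broadly. The Apc difference was -0.081 ± 0.032 with Bmal1 intact (limma, adjusted p = 0.0202, lower at 11 of 12 time points) and -0.072 ± 0.034 without (adjusted p = 0.0481, 8 of 12). The first was 0.014 in the lower-numbered set and -0.14 in the higher-numbered set, and the second lost its call in 28 of 44 fits that left out 1 library. The lectin chaperones Calr and Canx, the Hsp40 cofactors Dnajb11 and Dnajc3 and the large chaperone Hyou1 did not pass in either comparison, with differences between -0.077 and 0.060.

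Among the other folding genes the protein disulfide isomerases moved apart. Pdia3, which acts on glycoproteins, was at 313.6, 425.7 and 498.8 TPM in control and 470.7, 583.6 and 642.6 TPM in Apc-min libraries. Only the top of the control range reached into the Apc-min range, and the difference was 0.45 ± 0.048 (limma, adjusted p = 2.01e-10, higher at 12 of 12 time points). Without Bmal1 it was 0.33 ± 0.055. Hsp90b1, the ER Hsp90 also called GRP94, was higher by 0.33 ± 0.041 and 0.32 ± 0.041. Pdia4 differed in sign between the comparisons (0.14 ± 0.054 and -0.15 ± 0.072), and the second value lost its call in 25 of 44 fits that left out 1 library. Pdia6 was lower by small amounts in both (-0.076 and -0.18).

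Dnajb9 was the folding gene with the largest difference. It encodes ERdj4, a BiP cochaperone that also restrains IRE1. Its levels were 17.01, 22.78 and 32.00 TPM in control, 8.19, 12.62 and 20.49 in Apc-min and 4.70, 8.33 and 16.30 in Apc-min Bmal1-null libraries. The Apc-min range overlapped the low end of the control range, and the differences were -0.81 ± 0.096 (1.75-fold lower, adjusted p = 1.76e-09) and -1.22 ± 0.085 (2.32-fold lower, adjusted p = 1.22e-15), lower at 12 of 12 time points in each. The small luminal factors were flat or a little higher: Manf by 0.10 and 0.073, Creld2 by 0.065 (not called) and 0.17, and Sdf2l1 by 0.27 without Bmal1 but by -0.00095 (not called) with it. Under median-of-ratios scaling, the differences of Manf, Pdia4, Calr, Canx and Dnajc3 with Bmal1 intact changed sign.

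All 5 degradation genes were lower in both comparisons. Herpud1, a membrane protein that assembles the HRD1 retrotranslocation complex, was at 195.3, 243.2 and 265.3 TPM in control and 193.1, 229.4 and 261.3 TPM in Bmal1-null libraries. It was at 54.52, 82.16 and 126.9 TPM in Apc-min and 29.31, 60.14 and 112.3 TPM in Apc-min Bmal1-null libraries. Every library of the Apc-min genotypes lay below every library of the others, and the differences were -1.51 ± 0.096 (2.85-fold lower, limma, adjusted p = 1.38e-16) and -1.95 ± 0.085 (3.86-fold lower, adjusted p = 1.21e-21). Members without overlap between the groups numbered 7 of 37 with Bmal1 intact and 8 of 37 without, beside 28.1% and 30.4% of all genes tested. The first count includes Ern2 and the second Derl3, each tested there only through the Apc wild-type group.

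The other degradation genes followed at smaller size. Syvn1 encodes HRD1, the ubiquitin ligase of the complex, and was lower by 1.37-fold (-0.46 ± 0.076) with Bmal1 intact and 1.67-fold (-0.74 ± 0.083) without. Sel1l, the cofactor that holds HRD1 in place, differed by -0.47 ± 0.065 and -0.57 ± 0.070. Edem1, which hands mannose-trimmed glycoproteins to the complex, was at 47.87, 60.66 and 72.23 TPM in control and 31.39, 38.99 and 50.53 TPM in Apc-min libraries, a difference of -0.61 ± 0.044. Derl3, a channel component typical of secretory cells, was low throughout, with medians of 2.995 TPM in control, 2.875 in Bmal1-null, 0.50 in Apc-min libraries and 0.435 in those that also lacked Bmal1. All 5 passed in each library set in both comparisons. For Derl3 the filter was passed only through the Apc wild-type group, where it was higher.

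Among the sensors, IRE1β stood far from its paralogue IRE1α. Ern2, the gene of IRE1β, was at 8.90, 20.45 and 27.27 TPM in control and 10.38, 19.60 and 27.41 TPM in Bmal1-null libraries. It was at 0.19, 0.48 and 2.03 TPM in Apc-min and 0.59, 2.635 and 5.22 TPM in Apc-min Bmal1-null libraries. The Apc groups did not overlap on either background, and the differences were -3.66 ± 0.12 (12.6-fold lower, limma, adjusted p = 1.55e-25) and -2.46 ± 0.12 (5.51-fold lower, adjusted p = 5.12e-20). With Bmal1 intact Ern2 passed the filter only through the control group, where it was higher, so that test adds no independent support. Summed goblet cell markers (9 genes) had medians of 9757 TPM in control, 9580 in Bmal1-null, 148.4 in Apc-min libraries and 286.8 in those that also lacked Bmal1, and their part in the difference was not tested. In such bulk libraries, fewer cells of a type and less RNA per cell cannot be told apart.

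Ern1, the gene of the ubiquitous IRE1α, was at 5.35, 11.65 and 14.03 TPM in control, 8.27, 13.65 and 19.39 in Apc-min and 2.37, 8.775 and 16.92 in Apc-min Bmal1-null libraries, with wide overlap. It was higher with Bmal1 intact (0.36 ± 0.11, adjusted p = 0.00368) and lower without (-0.39 ± 0.13, adjusted p = 0.00697). Atf6, the sensor that is cleaved in the Golgi to give a transcription factor, followed the first sign (0.33 ± 0.10, adjusted p = 0.00283) and did not pass without Bmal1 (-0.054 ± 0.12). The lower-numbered set alone called neither the Ern1 differences (0.18 ± 0.17 and -0.21 ± 0.13) nor that of Atf6 with Bmal1 intact (0.28 ± 0.16), and the higher-numbered set called all 3. Eif2ak3, the gene of PERK, was at 14.08, 22.48 and 26.32 TPM in control and 10.92, 15.70 and 22.83 TPM in Apc-min libraries, and was lower on both backgrounds (-0.44 ± 0.088 and -0.69 ± 0.085).

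The transcription factors were lower as well. Xbp1, whose mRNA is spliced by IRE1 to give the active factor, was at 151.5, 193.1 and 209.6 TPM in control and 77.38, 136.3 and 165.8 TPM in Apc-min libraries. It was at 160.0, 194.3 and 219.2 TPM in Bmal1-null and 50.38, 84.35 and 148.5 TPM in Apc-min Bmal1-null libraries, where the ranges did not overlap. The differences were -0.61 ± 0.074 (adjusted p = 3.09e-09) and -1.12 ± 0.072 (2.18-fold lower, adjusted p = 1.04e-16), and gene-level TPM do not separate the spliced form. Atf4, the effector of the integrated stress response, is set mainly by translation. Its mRNA was at 298.6, 341.3 and 406.1 TPM in control and 232.1, 249.9 and 323.0 TPM in Apc-min libraries, with differences of -0.43 ± 0.037 (adjusted p = 8.65e-13) and -0.31 ± 0.044 (adjusted p = 5.48e-08).

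**Figure D3:**
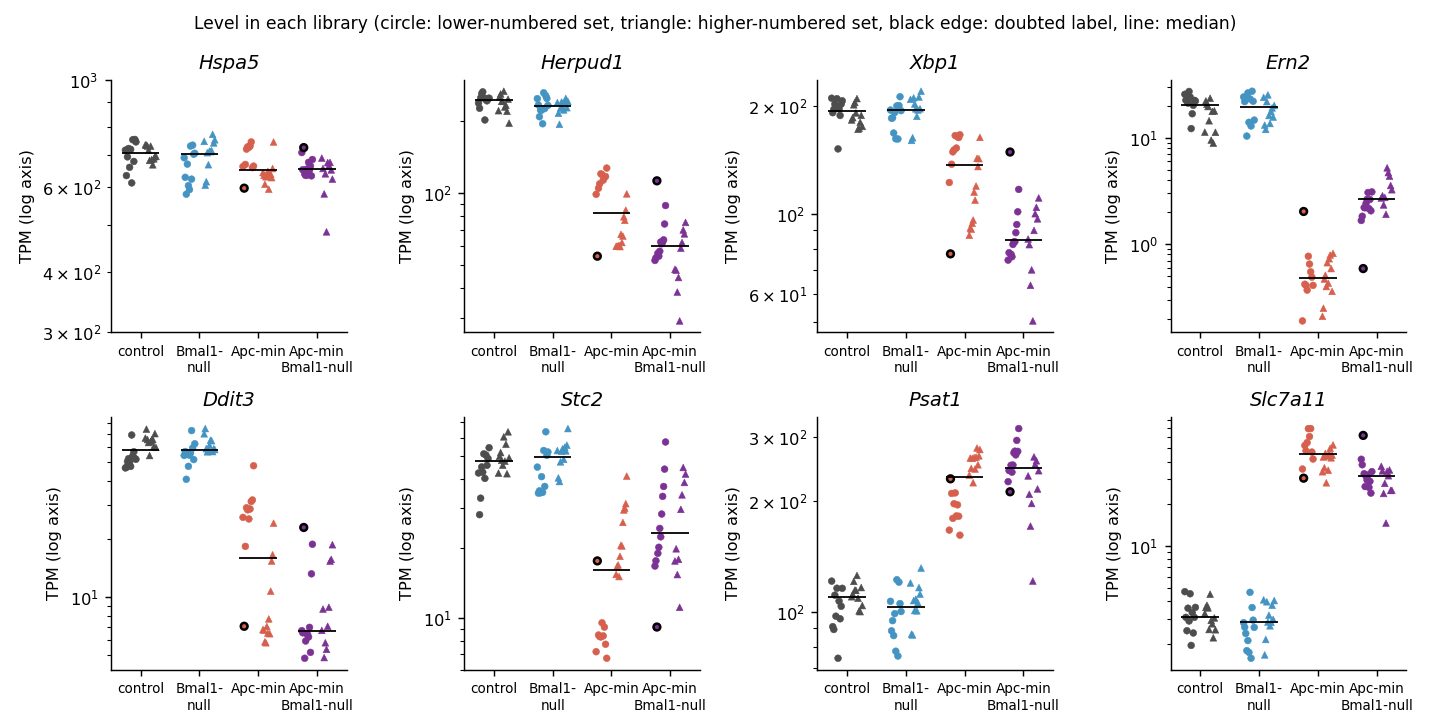
TPM (y axis, log scale) in each library by genotype for 8 genes, with circles for the lower-numbered and triangles for the higher-numbered set, a black edge on the 2 doubted libraries and a line at the median. Hspa5 stays between 484.4 and 770.7 TPM in every genotype, Ern2 falls from a median of 20.45 TPM in control to 0.48 TPM in Apc-min organoids and Slc7a11 rises from 3.08 to 45.16 TPM.

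Of the 12 ATF4 targets, 3 were higher and 6 lower with Bmal1 intact, and 6 and 6 without. Ddit3 encodes CHOP, a transcription factor that promotes cell death. It was at 46.83, 58.34 and 74.49 TPM in control and 5.79, 15.98 and 48.07 TPM in Apc-min libraries. It was at 40.89, 58.16 and 74.99 TPM in Bmal1-null and 4.81, 6.70 and 22.98 TPM in Apc-min Bmal1-null libraries. With Bmal1 intact a single Apc-min library reached into the control range, without Bmal1 none did, and the differences were -1.96 ± 0.21 (3.89-fold lower, adjusted p = 1.15e-10) and -2.65 ± 0.14 (6.26-fold lower, adjusted p = 4.58e-19). Atf3, a repressor induced with CHOP, did not overlap on either background (-2.13 ± 0.17 and -2.29 ± 0.11).

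Trib3 and Chac1 followed Ddit3. Trib3, a pseudokinase that feeds back on ATF4 and CHOP, was at 27.54, 34.24 and 44.46 TPM in control, 2.45, 15.51 and 32.21 in Apc-min and 1.68, 3.52 and 33.72 in Apc-min Bmal1-null libraries. The differences were -1.67 ± 0.22 (3.18-fold lower) and -2.21 ± 0.23 (4.61-fold lower), with overlap only through libraries late in the series. Chac1, which degrades glutathione, was at 26.43, 34.88 and 47.20 TPM in control and 3.14, 10.21 and 21.93 TPM in Apc-min libraries, with differences of -1.89 ± 0.16 and -2.10 ± 0.20. Stc2, a secreted glycoprotein, was at 27.94, 47.74 and 63.66 TPM in control, 6.71, 16.06 and 40.99 in Apc-min and 9.15, 23.40 and 57.54 in Apc-min Bmal1-null libraries (-1.6 ± 0.18 and -0.89 ± 0.10). Ppp1r15a did not pass with Bmal1 intact (-0.038 ± 0.18) and was lower without (-0.41 ± 0.11).

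Slc7a11, Psat1 and Phgdh were the ATF4 targets that were higher with Bmal1 intact. Slc7a11, the cystine importer xCT, was at 1.94, 3.08 and 4.70 TPM in control and 1.57, 2.83 and 4.65 TPM in Bmal1-null libraries. It was at 28.26, 45.16 and 69 TPM in Apc-min and 14.55, 31.60 and 61.66 TPM in Apc-min Bmal1-null libraries. The lowest library of the Apc-min genotypes was above the highest of the others, and the differences were 3.46 ± 0.098 (11-fold higher, limma, adjusted p = 2.59e-27) and 3.06 ± 0.11 (8.32-fold higher, adjusted p = 1.01e-24). Its promoter window held the C/EBP-ATF element on each strand, while the windows of Chac1 and Trib3, which were lower, held it too.

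Serine synthesis genes were higher as well. Phgdh, the first enzyme of the pathway, was at 74.92, 91.95 and 109.6 TPM in control and 132.9, 205.2 and 251.1 TPM in Apc-min libraries, without overlap (1.13 ± 0.062, adjusted p = 2.62e-18; 1.08 ± 0.034 without Bmal1). Psat1, the next enzyme, was at 74.57, 109.3 and 125.6 TPM in control and 161.7, 233.2 and 279.9 TPM in Apc-min libraries, again without overlap (1.08 ± 0.071; 1.21 ± 0.067 without Bmal1). The mitochondrial folate enzymes Shmt2 and Mthfd2 did not pass with Bmal1 intact (0.076 ± 0.11 and -0.14 ± 0.077) and were higher without (0.59 ± 0.060 and 0.35 ± 0.056). Asns, asparagine synthetase, was lower with Bmal1 intact (-0.29 ± 0.044) and higher without (0.11 ± 0.042, limma, adjusted p = 0.0133). Without Bmal1, Asns and Mthfd2 were called higher in the lower-numbered set and not in the higher-numbered set.

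Library sets changed the size of some Apc differences and the sign of others. With Bmal1 intact, 5 members were higher in both sets and 16 lower in both, beside 33.3% and 22.7% of genes, and 2 members passed in opposite directions, beside 3.81% of genes. These were Ppp1r15a, the phosphatase subunit GADD34 that reverses eIF2 phosphorylation (0.95 ± 0.13 in the lower-numbered and -0.84 ± 0.11 in the higher-numbered set), and Shmt2 (-0.32 ± 0.088 and 0.33 ± 0.051). Ddit3 differed by -0.86 ± 0.12 in the lower-numbered and -2.79 ± 0.17 in the higher-numbered set, and Stc2 by -2.26 ± 0.11 and -1.18 ± 0.12. Without Bmal1, 8 members were higher and 16 lower in both sets, beside 35.7% and 33.2% of genes, and none was opposite, beside 0.0983% of genes.

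Loss of Bmal1 on the Apc wild-type background left the members near their control levels. Phgdh was the only one of 37 to pass, with 74.92, 91.95 and 109.6 TPM in control and 89.71, 101.2 and 122.5 TPM in Bmal1-null libraries. The ranges overlapped, and the difference was 0.18 ± 0.042 (limma, adjusted p = 0.00629, higher at 11 of 12 time points), beside 3.56% of the 12654 genes that passed and 2.09% that were higher. It passed in the lower-numbered set and not in the higher-numbered set, and not after median-of-ratios scaling. No member was lower at the adjusted threshold, beside 1.47% of genes, and 2 members in all had an unadjusted p below 0.05, beside 10.6% of genes. Hspa5 differed by -0.040 ± 0.029 and Trib3 by -0.097 ± 0.068.

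On the Apc-min background, 8 of 36 tested members were higher and 14 lower in Apc-min Bmal1-null than in Apc-min organoids, beside 24.6% and 35.7% of 12885 genes, of which 60.3% passed. Without the 2 doubted libraries the counts were 9 and 16, without the 32 h library named above 10 and 13, and after median-of-ratios scaling 12 and 11, beside 35.3% and 31% of all genes under that scaling. The calls of Pdia6, Sel1l and Ppp1r15a were lost in 26, 25 and 14 of 44 fits that left out 1 library. Derl3 did not reach the filter. Of the 6 sensors and factors 4 were lower, namely Ern1 (-0.63 ± 0.12), Xbp1 (-0.47 ± 0.081), Atf6 (-0.42 ± 0.097) and Eif2ak3 (-0.24 ± 0.083), and of these Xbp1 alone was called in both library sets under their labels. Ern2 was 2.38-fold higher (1.25 ± 0.11, adjusted p = 5.01e-11, higher at 12 of 12 time points). Its mean in Apc-min organoids was below the filter of 1 TPM, so it was tested only through the Apc-min Bmal1-null group, where it was higher. Atf4 was higher by 0.11 ± 0.043. Among folding genes Dnajb9 (-0.51 ± 0.11) and Pdia4 (-0.26 ± 0.064) were lower and Sdf2l1 (0.33 ± 0.041) higher, and among degradation genes Herpud1 (-0.44 ± 0.11), Syvn1 (-0.21 ± 0.074) and Sel1l (-0.13 ± 0.056) were lower.

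Some of these differences were shared by the library sets. Both sets called Asns, Ern2 and Sdf2l1 higher, beside 9.38% of genes, and Dnajb9, Herpud1, Slc7a11 and Xbp1 lower, beside 18.1%. Leaving out the doubted pair added Atf6, Ern1 and Pdia4 to the genes lower in both, beside 10.3% of genes then higher and 23% lower in both. With means of the sets as the units, 2 members were higher (Ern2, under the filter limit named above, and Sdf2l1) and 3 lower.

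For Ddit3 the difference was seen in the lower-numbered set. It was at 18.33, 28.66 and 48.07 TPM in the 9 lower-numbered Apc-min libraries other than the doubted one, and at 5.79, 6.905 and 24.20 TPM in the 12 higher-numbered ones. In Apc-min Bmal1-null organoids it was at 4.81, 6.46 and 18.80 TPM in the lower-numbered set without the doubted library and at 4.85, 7.855 and 18.70 TPM in the higher-numbered set. The lower-numbered Apc-min set was thus high and the other 3 sets low, with overlap only at their highest libraries. The Bmal1 difference was -1.81 ± 0.11 in the lower-numbered set without the doubted pair (-1.47 ± 0.32 with it) and 0.0705 ± 0.084 in the higher-numbered set.

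Ppp1r15a and Stc2 showed the same division. Ppp1r15a was at 37.93, 55.45 and 83.34 TPM in the lower-numbered Apc-min libraries without the doubted one and at 16.80, 19.83 and 31.46 TPM in the higher-numbered ones, and the Bmal1 differences were -1.35 ± 0.070 and 0.080 ± 0.088. Stc2 was low in the first of these sets (6.71, 8.33 and 9.54 TPM) and at 15.11, 20.55 and 40.99 TPM in the second, with Bmal1 differences of 1.73 ± 0.17 and 0.21 ± 0.11. Shmt2 differed by 1.13 ± 0.086 and 0.079 ± 0.078, and Mthfd2 by 0.98 ± 0.074 and 0.14 ± 0.074. Atf3, Psat1 and Hyou1 passed in opposite directions in the sets under their labels, beside 5.61% of genes. Canx joined them without the doubted pair, beside 6.34% of genes. Whether the sets are the 2 organoid lines is not given.

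**Figure D4:**
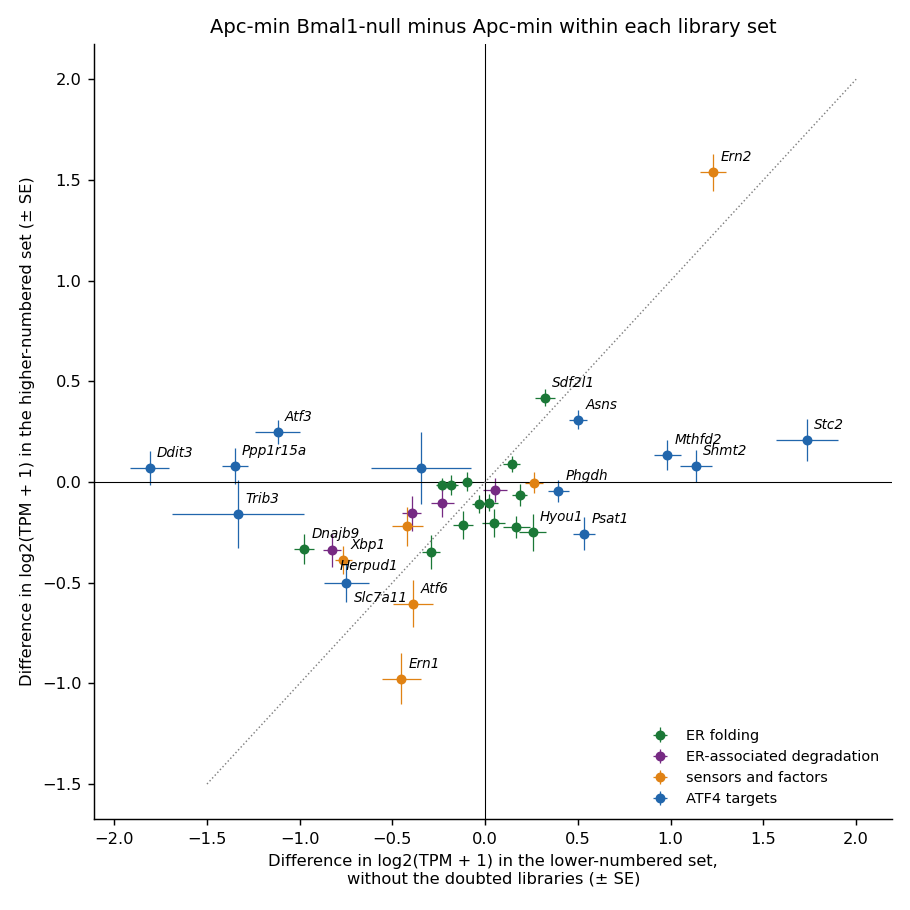
Difference in log2(TPM + 1) of Apc-min Bmal1-null minus Apc-min organoids in the lower-numbered set without the doubted libraries (x axis) and in the higher-numbered set (y axis), ± standard error, 1 point per gene; the dotted line marks equal values. Ern2 (1.23 and 1.54) lies near the line, while Ddit3 (-1.81 and 0.0705) and Stc2 (1.73 and 0.21) lie near the horizontal axis.

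A test of the difference between the Bmal1 effects on the 2 Apc backgrounds called 17 of the 37 members, beside 47.7% of 13846 genes (18.1% positive and 29.6% negative), and 19 without the doubted pair. Ern2 (1.19 ± 0.18), Stc2 (0.72 ± 0.21) and Shmt2 (0.52 ± 0.13) had the largest positive values, meaning a higher Bmal1-null to wild-type difference on the Apc-min background. Ern1 (-0.75 ± 0.17), Ddit3 (-0.68 ± 0.24) and Xbp1 (-0.50 ± 0.10) had the largest negative values. On the Apc-min background, the Bmal1 differences of Stc2, Shmt2 and Ddit3 were called in the lower-numbered set and not in the higher-numbered set. The median over all members was -0.045, beside -0.054 over all genes.

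Over the 24 to 46 h of collection, Trib3 and Chac1 rose in both Apc-min genotypes. Trib3 stood between 27.54 and 44.46 TPM in all control libraries. In the higher-numbered Apc-min set it was 3.67 TPM at 24 h, 4.48 at 36 h, 12.52 at 40 h and 32.21 at 46 h. In the lower-numbered Apc-min Bmal1-null set it was 2.78 TPM at 24 h, 2.49 at 36 h, 10.89 at 40 h and 33.72 at 46 h, apart from 20.13 TPM in the doubted library at 28 h. The last libraries of these sets had reached the control range. The lower-numbered Apc-min set stayed between 15.06 and 20.56 TPM throughout, apart from 2.45 TPM in the doubted library.

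Linear changes from 24 to 46 h were called for 16 of 35 members tested in Apc-min organoids, beside 31.2% of genes, and 13 of the 16 were rising, beside 22.2% of genes rising and 9.01% falling. In Apc-min Bmal1-null organoids 6 of 36 were called, all rising, beside 8.44% of genes called, 5.62% rising and 2.82% falling. Trib3 rose by 2.37 ± 0.51 with Bmal1 intact (limma, adjusted p = 0.0022) and by 3.01 ± 0.56 without it (adjusted p = 0.000902), on the log2(TPM + 1) scale. Chac1 rose by 1.76 ± 0.32 and 2.66 ± 0.40, and Stc2, not called in Apc-min, by 1.80 ± 0.22 in Apc-min Bmal1-null organoids. Xbp1 (0.90 ± 0.14), Ddit3 (1.80 ± 0.52), Herpud1 (0.78 ± 0.23) and Atf3 (1.38 ± 0.43) rose in Apc-min organoids, and Creld2 (-0.32 ± 0.058), Phgdh (-0.47 ± 0.13) and Dnajb11 (-0.21 ± 0.070) fell. Asns, Shmt2 and Atf4 rose in Apc-min Bmal1-null organoids by 0.41, 0.59 and 0.46.

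The slopes in Apc-min organoids rested on one set for part of the genes. Trib3 changed by 3.03 ± 0.37 in the higher-numbered set and by 1.15 ± 0.69 in the lower-numbered set (0.086 ± 0.18 without the doubted pair), and Chac1 by 2.42 ± 0.26 and 0.71 ± 0.38 (0.22 ± 0.24). Atf3 rose and Creld2 and Phgdh fell in both sets, beside 2.28% and 3.04% of genes, and without the doubted pair Ddit3, Herpud1 and Xbp1 rose in both as well, beside 5.99% rising and 3.93% falling. In Apc-min Bmal1-null organoids Chac1 and Stc2 rose in both sets, beside 0.693% of genes, and so did Trib3 without the doubted pair, beside 1.85% of genes.

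No member had a called slope in control organoids in limma, beside 2.2% of genes (0.971% rising and 1.23% falling), and 1 member had an unadjusted p below 0.05, beside 16.1% of genes. In Bmal1-null organoids 5 of 37 rose, beside 6.71% of genes called (3.43% rising and 3.28% falling). These were Dnajb9 (0.66 ± 0.15), Derl3 (0.55 ± 0.13), Stc2 (0.51 ± 0.15), Asns (0.40 ± 0.10) and Hsp90b1 (0.32 ± 0.093), and none of these was called in a single set. Leaving out 1 library gave 2 to 7 calls, with moves of over 1.5 times for either library at 26 or 28 h and for the second at 42, 44 or 46 h. The slopes differed between Apc-min and Apc wild-type organoids for 9 of 37 members, beside 21% of genes (15.4% positive and 5.53% negative), with Trib3 (2.61 ± 0.40) and Chac1 (2.33 ± 0.28) first and no folding gene among them. The slope difference by Bmal1 was called for no member in limma, beside 0.0578% of genes (0.0289% in each direction), and at an unadjusted p below 0.05 for 7 of 37 members, beside 14.7% of genes.

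**Figure D5:**
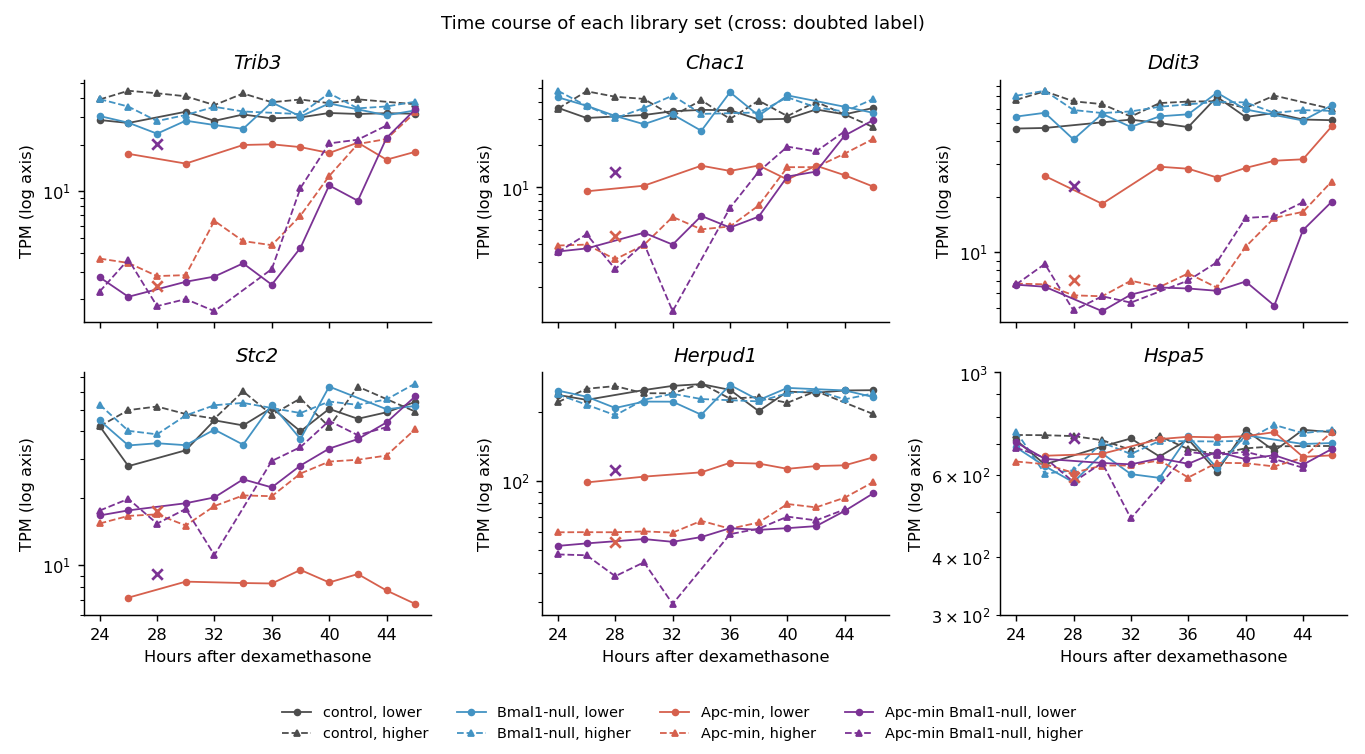
TPM (y axis, log scale) against hours after dexamethasone (x axis) for 6 genes, 1 line per genotype and library set (solid lower-numbered, dashed higher-numbered), with crosses for the 2 doubted libraries. Trib3 climbs from 3.67 to 32.21 TPM in the higher-numbered Apc-min set and stays between 27.54 and 44.46 TPM in control, and Hspa5 has no such climb.

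A 24 h cosine fitted to the 22 h series called no member in control organoids, beside 0.0557% of genes, and none in Bmal1-null organoids, beside 0% of genes. At an unadjusted p below 0.05, 0 members passed in control and 10 in Bmal1-null organoids, beside 12.2% and 6.88% of genes. In Apc-min organoids 7 members were called, beside 12% of genes: Xbp1, Edem1, Pdia4, Eif2ak3, Chac1 and Trib3 with fitted peaks between 39.4 and 41.8 h, and Creld2 at 29.6 h. Peak-to-trough folds ran from 1.18 for Creld2 to 3.50 for Trib3. In Apc-min Bmal1-null organoids 6 were called, beside 2.59% of genes, with peaks between 40.8 and 43 h and folds of 5.84 for Trib3, 4.45 for Chac1 and 2.81 for Stc2. With a linear time term in the fit, no member was called in either genotype, and without the doubted pair the counts were 1 and 11. Leaving out 1 library gave 1 to 9 calls in Apc-min and 2 to 11 in Apc-min Bmal1-null organoids. Moves of over 1.5 times came in the first from either library at 28 h, the second at 30 or 32 h or the first at 38, 40 or 42 h. In the second genotype they came from the second library at 26 h, the first at 28 or 42 h or either at 38, 40 or 44 h. The test for a rhythm difference by Bmal1 called no member on either Apc background, beside 0.0395% and 0% of genes, and 3 and 7 members had an unadjusted p below 0.05, beside 1.87% and 6.83% of genes.

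Wider lists of the same pathways held genes that were higher and genes that were lower, and their counts stand beside 50.5% of all genes higher and 31.1% lower with Bmal1 intact, and 45.7% and 38.8% without. Of 26 other ER folding genes, 7 were higher and 10 lower with Bmal1 intact, and 8 and 15 without. Agr2, a goblet cell disulfide isomerase, had the largest difference (-5.66 ± 0.15 and -4.42 ± 0.11), and Prdx4, an ER peroxiredoxin, was higher (1.10 ± 0.048 and 0.94 ± 0.044). Of 24 other degradation genes, 10 were higher and 8 lower, and 9 and 9 without Bmal1, with Rnf5 (-0.92 ± 0.033) and Os9 (-0.63 ± 0.082) lower and Ube2g2 (0.84 ± 0.036) higher. Of 22 other sensors and regulators, 10 were higher and 4 lower, and 9 and 7 without Bmal1. The 4 lower ones with Bmal1 intact were the transcription factors Creb3l3 (-6.47 ± 0.074), Creb3l4 (-2.31 ± 0.074), Bhlha15 (-2.21 ± 0.12) and Creb3l1 (-2.09 ± 0.20), which are known from enterocytes and secretory cells. The translocation and glycan transfer list had 8 higher and 7 lower of 24, and 7 and 9 without Bmal1.

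The wider ATF4 programme was read against the same shares of all genes (50.5% and 31.1%, and 45.7% and 38.8% without Bmal1). Of 19 tested regulators and transporters, 7 were higher and 7 lower with Bmal1 intact, and 6 and 10 without. Nupr1, a stress cofactor, was lower (-3.19 ± 0.25 and -3.58 ± 0.11), and Jdp2 (2.49 ± 0.081) and the secreted factor Gdf15 (1.72 ± 0.099) were higher. Of 12 amino acid and one-carbon enzymes, 4 were higher and 6 lower, and 4 and 7 without Bmal1, with Cth of cysteine synthesis at -2.64 ± 0.057 and the folate enzyme Mthfd1l at 1.4 ± 0.064. Aminoacyl-tRNA synthetases had 7 of 13 higher and 3 lower, and 9 and 3 without Bmal1, with Iars (0.56 ± 0.12) and Eprs (0.45 ± 0.059) among the higher. Over time, 10 of 18 regulators and transporters rose in Apc-min organoids and none fell, beside 22.2% and 9.01% of genes, with Vldlr (2.22 ± 0.49), Nupr1 (1.93 ± 0.65) and Ddit4 (1.79 ± 0.33) first. These slopes pool both library sets and include the doubted library, and values within each set are not given.

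Lists that share members or triggers with the stress arms were read against the same shares. Slc7a11 is also a target of the oxidative stress factor NRF2, and of 10 other NRF2 targets 6 were higher and 4 lower with Bmal1 intact, and 7 and 2 without, with Hmox1 (2.40 ± 0.23), G6pdx (2.20 ± 0.074) and Gclc (1.22 ± 0.12) higher with Bmal1 intact. Nqo1 was lower with Bmal1 intact (-1.43 ± 0.22) and higher without (0.29 ± 0.135). Of 11 mitochondrial chaperones and proteases, 7 were higher and 2 lower, led by Hspe1 (0.97 ± 0.082) and Hspd1 (0.74 ± 0.094). Myc was higher by 1.00 ± 0.056 and Mycn lower (-1.63 ± 0.058).

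Cell type markers moved with the Apc comparison. Epithelial markers were present, and each of the 5 averaged at least 1 TPM in every genotype. Summed Paneth cell markers (8 genes) had medians of 18640 TPM in control and 2175 TPM in Apc-min libraries, with 5 of the 8 lower and 3 higher (Mmp7, Pla2g2a and Mptx2). Summed enterocyte markers (8 genes) had medians of 7019 and 186.6 TPM and summed enteroendocrine markers (8 genes) of 465.5 and 2.525 TPM. In Apc-min libraries 6 Paneth, 2 enterocyte and 1 enteroendocrine markers reached a mean of 1 TPM, so that the others passed the filter through the control group. Of the 9 goblet cell markers, 8 reached that mean in control and 5 in Apc-min libraries. Without Bmal1 the Paneth sums had medians of 18700 and 569 TPM and the enterocyte sums of 6406 and 222.4 TPM. Proliferation markers (8 genes) had sums of 851.3 and 1407 TPM, with 8 of 8 higher. Summed stem cell markers (5 genes) had medians of 1026 TPM in control and 364.6 TPM in Apc-min libraries, and 909 and 259.1 TPM without Bmal1. Summed fibroblast markers (6 genes) did not exceed 1.04 TPM in any library. Summed endothelial markers (3 genes) reached at most 0.54 TPM in control and 19.58 TPM in Apc-min libraries, with medians of 0.25 and 2.68 TPM. Summed markers of plasma and other immune cells (8 genes) had medians of 226.2 and 263 TPM. The part of the changed cell types in the lower Herpud1, Derl3, Xbp1 and Dnajb9 was not tested.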

How the data were processed

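RNA-seq libraries were made with a directional kit, per the labels' protocols. Per the submitters' processing notes, the tools were STAR 2.5 and RSEM 1.3.0 and the build GRCm38; settings are not given in the sources used here. The authors deposited TPM for each library (column sums 999999.2 to 1000001.03), which keep no depth, and quantile-normalized TPM per genotype, used as an alternative. Depth came from the deposited counts of uniquely mapped reads and the deposited percent of reads too short to map.

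Genes with a mean of 1 TPM in at least 1 genotype compared were fitted on log2(TPM + 1) with limma 3.58.1 in R 4.3.3 (intensity trend, time point as a factor in level tests), and Benjamini-Hochberg adjustment over all genes tested. Called means adjusted p below 0.05. Time was fitted as a slope or as a cosine of 24 h. There are 44 libraries in each pair of genotypes. The scripts were tested on simulated data. The members, lists and tests were chosen with earlier results of these data known.

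All 37 members are named. Described in full were Hspa5, Ern1, Ern2, Eif2ak3, Atf6, Xbp1 and Atf4, and for each role and level comparison up to 4 called members of the largest difference. In each genotype up to 4 members of the lowest p were named for time, and up to 4 called members for each wider list. Genes whose sets differ were described after their values were seen. Alternatives were another pseudocount, other filters, scaling, a term for the library set, set means, a fit of 4 genotypes, the doubted libraries left out, and each library left out. Fits within a library set were added after the data were seen.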

Additional observations from a re-analysis of the deposited data

Results flagged for a closer look

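The Bmal1 difference differed between the Apc backgrounds, by the test of that difference in limma, for 17 of 37 members, beside 47.7% of all genes, a share close to that of the members. The values on the log2(TPM + 1) scale, Apc-min background minus Apc wild-type background, were 1.19 for Ern2, 0.72 for Stc2, 0.52 for Shmt2, 0.48 for Mthfd2, 0.41 for Asns, 0.27 for Sdf2l1 and 0.10 for Creld2. They were -0.75 for Ern1, -0.68 for Ddit3, -0.50 for Xbp1, -0.42 for Herpud1, -0.40 for Slc7a11, -0.40 for Dnajb9, -0.38 for Atf6, -0.28 for Pdia4, -0.28 for Syvn1 and -0.096 for Pdia6. Creld2 lost its call in 55 and Pdia6 in 10 of 88 fits that left out 1 library. In the higher-numbered set alone the value of Ddit3 was 0.12. On the Apc-min background, the Bmal1 differences of Stc2, Shmt2 and Mthfd2 were called in the lower-numbered set and not in the higher-numbered set.

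The change from 24 to 46 h differed between Apc-min and Apc wild-type organoids for 9 of 37 members, by the test of the slope difference, beside 21% of all genes, also close. It was larger in Apc-min organoids by 2.61 for Trib3, 2.33 for Chac1, 1.33 for Ddit3, 0.82 for Atf3, 0.68 for Herpud1, 0.63 for Xbp1, 0.50 for Syvn1, 0.48 for Eif2ak3 and 0.31 for Atf4. In the lower-numbered set alone 1 member was called, and 6 without the doubted pair.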

How the results depend on the processing

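TPM keep no read depth, so counting error per gene is unknown, and pairs of lines could not be formed. Apart from fits leaving out 1 library, 178 counts of members stayed within 1.5 times and 41 moved. Of single-member values 5834 kept direction and side of the threshold, 260 lost the call, 204 gained it and 27 reversed. The causes were not tested.

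Set means as units gave 5 higher (Apc, Bmal1 intact), 7 higher (Apc, without Bmal1), 0 higher (Bmal1, Apc wild-type), and 2 higher and 3 lower (Bmal1, Apc-min). For Bmal1 on Apc wild-type, scaling gave 0 higher, the higher-numbered set 0 higher and the lower-numbered set 2 lower. For Bmal1 on Apc-min, the lower-numbered set without the doubted pair gave 13 higher and the higher-numbered set 4.

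Rhythm calls in Apc-min were 2 without a filter, 17 with a set term, 16 with a set term and without the doubted pair, 1 without that pair, 3 in the quantile-normalized table, and 0 with linear time and in the lower-numbered set (with or without the pair) and the higher-numbered set. In Apc-min Bmal1-null they were 2 without a filter, 3 after scaling, 11 without the doubted pair, 14 with a set term besides, and 0 with linear time or in the lower-numbered set (with or without the pair).

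Slope calls in Bmal1-null were 3 without a filter, 8 in the quantile-normalized table and 0 in either set. In Apc-min they were 3 in the lower-numbered set and 6 there without the doubted library. In Apc-min Bmal1-null they were 11 after scaling, 10 in the quantile-normalized table, 3 in the higher-numbered set, 12 in the lower-numbered set without the doubted library and 12 with a set term without the pair. Slope differences by Apc were 14 after scaling and 1 in the lower-numbered set, and by Bmal1 2 with a set term and 1 with it and without the pair.

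Signs reversed after scaling (Apc, Bmal1 intact) for Calr (-0.17), Canx (-0.16), Pdia4 (-0.025), Dnajc3 (-0.15) and Manf (-0.062). In the lower-numbered set, with or without the doubted pair, they reversed for Hspa5 (0.014), Pdia6 (0.062), Ppp1r15a (0.95) and Shmt2 (-0.32) with Bmal1 intact. Without Bmal1 they reversed for Hspa5 (0.0095, lower-numbered set) and Manf (-0.037, higher-numbered set). For Bmal1 on Apc-min they reversed for Canx (0.17, lower-numbered set without the pair) and, in the higher-numbered set, for Hyou1 (-0.25), Atf4 (-0.0029), Ddit3 (0.0705), Atf3 (0.25), Ppp1r15a (0.080) and Psat1 (-0.26). The difference of Bmal1 effects reversed for Dnajc3 (0.23) and Hyou1 (0.28, both without and with the pair) in the lower-numbered set, for Phgdh (0.19) there without the pair, and for Ddit3 (0.12) in the higher-numbered set.

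Leaving out 1 library gave 9 to 10 higher and 16 to 19 lower (Apc, Bmal1 intact), 10 to 12 and 18 to 20 (Apc, without Bmal1), 1 and 0 (Bmal1, Apc wild-type), and 7 to 10 and 11 to 17 (Bmal1, Apc-min). It gave 15 to 19 for the difference of Bmal1 effects, 7 to 10 slope differences by Apc, slopes of 12 to 17 (Apc-min), 6 to 9 (Apc-min Bmal1-null) and 2 to 7 (Bmal1-null), and rhythms of 1 to 9 (Apc-min) and 2 to 11 (Apc-min Bmal1-null).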
